A study of Mus musculus with 23 samples.

Results

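The genes described here are 10 markers of resident and alternatively activated macrophages: Arg1, Chil3, Retnla, Mrc1, Mgl2, Cd209f, Cd163, Lyve1, Folr2 and Timd4. They were chosen by symbol and not by a threshold on a measured value, but with earlier results of these data known. They make up 10 of the 43068 genes listed for the crush libraries and 10 of the 22880 genes listed for the inducible knockout (iKO) libraries. Their levels were followed in sciatic nerves (SNs) of mice through 7 groups, after crush injury and after deletion of Dicer1 or Dgcr8 in Schwann cells (SCs).

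The macrophages of a healthy peripheral nerve include cells marked by scavenger receptors and lectins such as Cd163, Mrc1 and Lyve1. After injury, monocytes enter the nerve from the blood and become macrophages that clear myelin debris. Interleukin 4 and interleukin 13 signal through Il4ra and the transcription factor Stat6 and induce Arg1, Chil3, Retnla, Mrc1 and Mgl2 in cultured macrophages, a state called alternative activation.

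RNA of whole SNs was sequenced in 23 libraries. The crush experiment used wild-type C57bl6 males (C57BL/6J in the methods), operated at the age of 2 months. It holds nerves crushed 3 days before (3 dpc, n = 4), the contralateral nerves of operated mice (n = 4) and uncrushed surgery controls (n = 3). The crushed piece was taken distal to the injury. The iKO experiment holds Dicer iKO (P0-CreERT2 -/+ Dicer1 flox/flox), Dgcr8 iKO (P0-CreERT2 -/+ Dgcr8 flox/flox) and for each its own Cre-negative floxed controls (P0-CreERT2 -/-), with n = 3 per group, on the C57bl6 background. All iKO mice and their controls received tamoxifen on 5 days at an age of 8 to 10 weeks and were analysed 3 months post-tamoxifen (mpT). The transgene recombines in myelinating SCs, so macrophages were not the targeted cells, and mutants were preselected on nerve morphology. The methods give separate mice within each group and take contralateral nerves from operated mice, so crushed and contralateral nerves may share mice, but no source ties a crushed nerve to a given contralateral library.

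Total counts per library ranged from 6617716 to 12806066 in the crush experiment and from 5594859 to 10143244 in the iKO experiment. Levels are given as CPM, a gene's count relative to its library's total and scaled within an experiment by the trimmed mean of M values (TMM). A count of 3, taken as the limit of what a library can show, came to 0.234 to 0.453 CPM and 0.296 to 0.536 CPM. That limit covers counting error only. The experiments were prepared with different kits by their labels and were never tested against each other. All 9 pan-macrophage genes examined beside the members (Adgre1, Cd68, Csf1r, Aif1, Fcgr1, Mertk, C1qa, C1qb and C1qc) had at least 3 counts in every library. Their summed level was 145 to 156 CPM in uncrushed, 107 to 155 in contralateral and 384 to 727 in crushed nerves. It was 356 to 689 CPM in Dicer controls, 1457 to 2534 in Dicer iKO, 339 to 376 in Dgcr8 controls and 1165 to 2727 in Dgcr8 iKO.

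Between genes, levels were compared by the deposited TPM, which corrects for transcript length, within a group only. In uncrushed nerves the leading members were Mgl2 (0.997 ± 0.405 TPM, SD, n = 3), Cd163 (0.947 ± 0.289) and Mrc1 (0.920 ± 0.376), which did not differ beyond their spread. Arg1 (0.0467 ± 0.0115 TPM) and Chil3 (0.0100 ± 0.0100) came last. At 3 dpc the order was led by Mrc1 (8.96 ± 2.80 TPM, n = 4) and Arg1 (7.81 ± 5.31), which again overlapped, and Mgl2 had moved to place 7 (0.255 ± 0.129). Dicer controls were led by Cd163 (44.9 ± 13.3 TPM, n = 3) and Mrc1 (44.0 ± 19.8), and Dicer iKO by Mrc1 (58.6 ± 1.33) and Folr2 (39.2 ± 12.8). In Dgcr8 controls Retnla came first in the mean (54.8 ± 59.4 TPM), a place set by replicate 2, ahead of Mgl2 (31.3 ± 1.56). In Dgcr8 iKO, Folr2 (48.3 ± 28.4 TPM) and Mrc1 (34.2 ± 10.7) came first and Mgl2 stood at 5.56 ± 2.74. Folr2 thus held place 6 in uncrushed, contralateral and both kinds of control nerves, place 5 in crushed nerves, place 2 in Dicer iKO and place 1 in Dgcr8 iKO.

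The sequences upstream of 4 members are printed because Retnla and Mgl2 were lower and Folr2 higher in both mutants, while Mrc1 and Folr2 were higher after crush. They run from 250 bases before the RefSeq start site up to whichever of the RefSeq start and the start of the main Ensembl transcript comes first, on GRCm38.p6. The Folr2 stretch precedes the transcript that carried its counts and lies within the annotated span of the gene. Capitals mark matches to 4 motifs searched on both strands: TTC and GAA parted by 4 bases of any kind (STAT6), TGANTCA (AP-1), GAGGAAG (PU.1, shown as its reverse complement where it lies on the other strand) and TTGCNNAA (C/EBP).
Retnla, chr16:48842359-48842550, plus strand: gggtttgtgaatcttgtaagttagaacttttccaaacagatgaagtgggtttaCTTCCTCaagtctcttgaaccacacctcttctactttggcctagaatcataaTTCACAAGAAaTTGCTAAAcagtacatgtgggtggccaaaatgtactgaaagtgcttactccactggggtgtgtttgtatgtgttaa
Mgl2, chr11:70130107-70130328, plus strand: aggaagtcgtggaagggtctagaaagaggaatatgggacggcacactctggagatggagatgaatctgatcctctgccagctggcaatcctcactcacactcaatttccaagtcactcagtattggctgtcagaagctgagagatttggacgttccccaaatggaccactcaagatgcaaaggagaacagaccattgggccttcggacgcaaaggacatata
Mrc1, chr2:14229164-14229391, plus strand: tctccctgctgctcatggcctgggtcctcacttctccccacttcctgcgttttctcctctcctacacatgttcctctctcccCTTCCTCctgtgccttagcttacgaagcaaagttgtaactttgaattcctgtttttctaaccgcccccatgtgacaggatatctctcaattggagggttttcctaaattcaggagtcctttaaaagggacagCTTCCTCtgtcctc
Folr2, chr7:101845332-101845581, minus strand: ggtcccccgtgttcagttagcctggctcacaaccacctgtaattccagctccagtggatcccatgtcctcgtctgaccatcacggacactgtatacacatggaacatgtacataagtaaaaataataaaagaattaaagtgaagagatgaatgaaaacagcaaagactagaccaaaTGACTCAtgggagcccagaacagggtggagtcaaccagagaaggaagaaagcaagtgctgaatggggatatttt

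The Retnla stretch held the STAT6 letters TTCACAAGAA 145 bases before its RefSeq start site, a C/EBP match beginning 134 bases before it and a PU.1 match 197 bases before it, none of which overlapped. Mrc1 held PU.1 matches 168 and 36 bases before its start, and Folr2 an AP-1 match 74 bases before its start. Mgl2 held no match, nor did the other Folr2 window (chr7:101857141-101857440) or the 300-base windows of Chil3, Cd163 and Timd4, while Cd209f held an AP-1 match. Among all 32851 windows of 300 bases in the RefSeq table, 6.95% held the STAT6 letters, 7.81% AP-1, 13.6% PU.1 and 10.8% C/EBP. The table holds windows for 8 of the 10 members, without Arg1 and Lyve1. A match is a match of letters and was not tested for binding.

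To ask how the markers responded to injury, crushed nerves were compared with uncrushed and with contralateral nerves by edgeR's quasi-likelihood test, with a gene called at a fold change of at least 2 and a Benjamini-Hochberg adjusted p of at most 0.05. Arg1, Chil3, Mrc1, Lyve1 and Folr2 rose at 3 dpc, by log2 fold changes between 1.81 and 6.58 against uncrushed nerves, and Mgl2 fell. Against uncrushed nerves 9 members were tested, of which 5 were called upregulated, where 15.3% of all 17433 tested genes were, and 2 downregulated, where 21.1% were. Against contralateral nerves 9 were tested, of which 5 were upregulated (14.6% of 16667 genes) and 1 downregulated (13.6%). The median log2 fold change of the tested members was 1.81 against uncrushed and 2.27 against contralateral nerves, beside -0.03 and -0.06 over all tested genes. Of the 9 pan-macrophage genes, 8 rose in each comparison, with medians of 2.45 and 2.72, and their part in the rise of the members was not tested. The 2 comparisons share the crushed nerves and are not independent. In whole nerve, more cells of a type and more RNA per cell cannot be told apart.

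**Figure D1:**
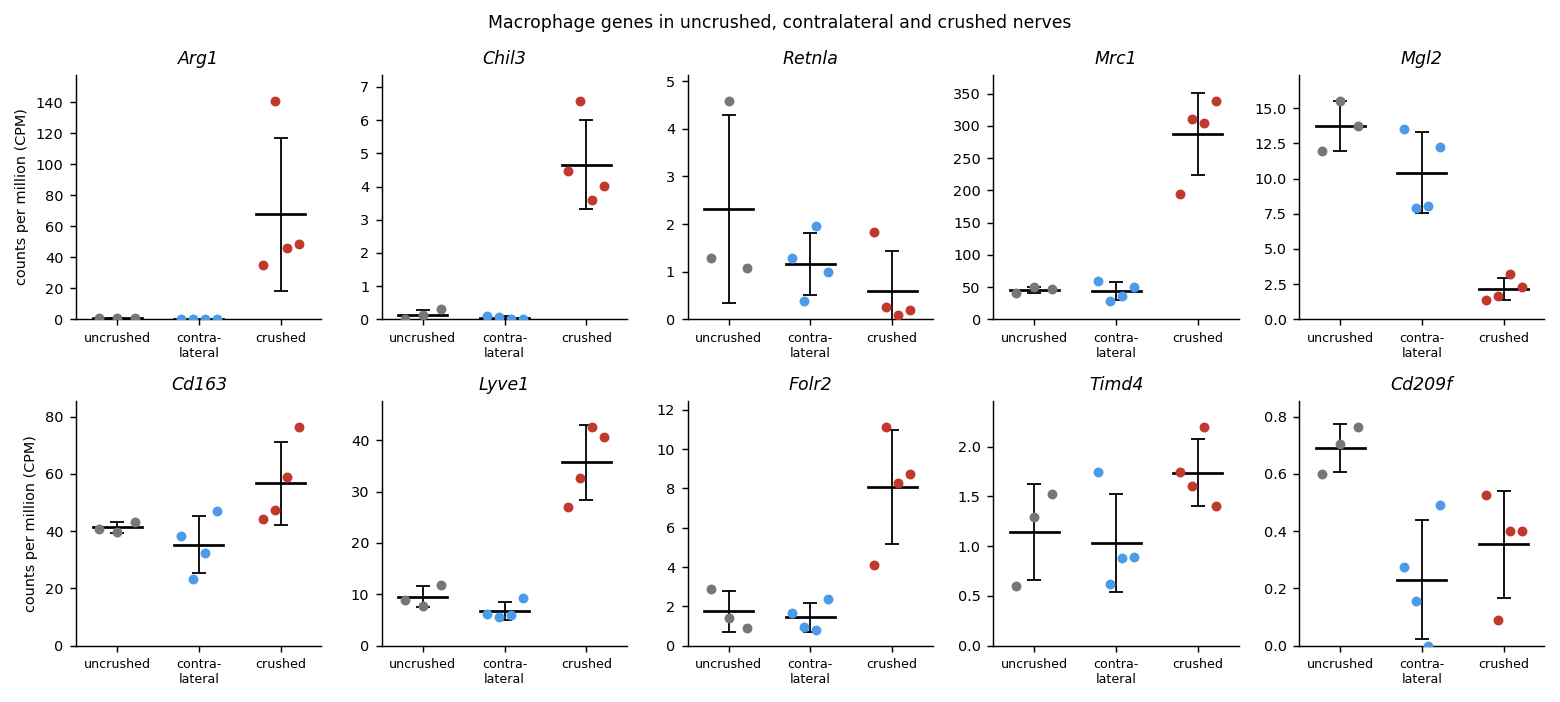
CPM of the 10 genes in each library of the crush experiment (points), by group, with the group mean (line) and SD (bar); each panel has its own axis from 0. The 4 crushed nerves lie above all other nerves for Arg1, Chil3, Mrc1, Lyve1 and Folr2, and below all for Mgl2.

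Of the secreted or cytosolic products of alternative activation, Arg1 changed the most. Arg1 (ENSMUSG00000019987, chr10:24915221-24927484, minus strand) encodes arginase 1, which splits arginine into ornithine and urea. Its level was 0.684, 0.588 and 0.611 CPM in uncrushed nerves, 0.276, 0.233, 0.489 and 0.0985 in contralateral nerves, and 35.1, 141, 46.0 and 48.7 in crushed nerves. All crushed nerves lay far above all others, and replicate 2 stood about 3-fold above the other crushed nerves, at a mean of 67.7 ± 49.2 CPM (SD, n = 4). The log2 fold change was 6.58 (SE 0.66, adjusted p = 3.0e-06) against uncrushed and 7.75 (SE 0.62, adjusted p = 5.0e-08) against contralateral nerves, and 5.95 and 7.10 without crushed replicate 2.

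Chil3 (ENSMUSG00000040809, chr3:106147554-106167564, minus strand) encodes the chitinase-like lectin Ym1. It had 0, 0.118 and 0.305 CPM in uncrushed nerves, 0.0919, 0.0778, 0 and 0 in contralateral nerves, and 4.46, 6.58, 3.60 and 4.01 in crushed nerves. The crushed nerves did not overlap with the others, which were all at or below the depth limit. Summed over libraries, 201 counts in crushed nerves stood against 3 in uncrushed nerves, a ratio of 42.0 with an exact 95% counting interval of 14.2 to 206, and against 2 in contralateral nerves, a ratio of 104 (28.4 to 864). Both tests called Chil3 upregulated, with adjusted p = 5.4e-06 and 3.3e-08 by edgeR's quasi-likelihood test. Its fitted log2 fold change against uncrushed nerves was 5.11 and moved to 4.38 without uncrushed replicate 1 and to 6.17 without uncrushed replicate 3.

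Retnla (ENSMUSG00000061100, chr16:48842551-48844461, plus strand), which encodes the secreted protein Relm-alpha, did not follow Arg1 and Chil3. Its level was 1.28, 4.59 and 1.07 CPM in uncrushed nerves, 1.29, 0.389, 1.96 and 0.985 in contralateral nerves, and 1.84, 0.267, 0.0999 and 0.201 in crushed nerves. Crushed replicates 2 to 4 lay below all uninjured nerves, whereas crushed replicate 1 overlapped with them. The log2 fold change was -1.99 (SE 0.75, adjusted p = 0.034) against uncrushed nerves, which passed, and -0.97 (SE 0.67, adjusted p = 0.21) against contralateral nerves, which did not. The first call was lost without crushed replicate 2, 3 or 4 (adjusted p = 0.080, 0.076 and 0.080) or uncrushed replicate 2 (-1.02, adjusted p = 0.31), and without crushed replicate 1 the values were -3.64 and -2.65, both called (adjusted p = 0.00098 and 0.0022). Adipose tissue also expresses Retnla, and 6 adipocyte genes summed to 15.8 CPM in crushed replicate 1 and 2.21 to 4.18 CPM in the other crushed nerves; their part in the result was not tested.

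The C-type lectins moved in opposite directions. Mrc1 (ENSMUSG00000026712, chr2:14229392-14332057, plus strand) encodes the mannose receptor CD206. It had 40.6, 49.6 and 47.5 CPM in uncrushed nerves, 60.1, 29.2, 35.9 and 50.5 in contralateral nerves, and 195, 310, 304 and 339 in crushed nerves. Every crushed nerve lay at least 3-fold above the highest uninjured nerve, with log2 fold changes of 2.53 (SE 0.19, adjusted p = 2.0e-07) and 2.58 (SE 0.21, adjusted p = 6.6e-08).

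Mgl2 (ENSMUSG00000040950, chr11:70130329-70137550, plus strand) encodes the galactose-type lectin CD301b, found on macrophages and on a class of dendritic cells. Its level was 11.96, 15.5 and 13.7 CPM in uncrushed nerves, 13.5, 7.93, 8.03 and 12.2 in contralateral nerves, and 1.40, 1.69, 3.20 and 2.31 in crushed nerves. The crushed nerves lay below all others, with log2 fold changes of -2.80 (SE 0.23, adjusted p = 5.8e-07) and -2.42 (SE 0.25, adjusted p = 9.5e-07). Its neighbour in sequence, Clec10a, encoding CD301a, went the other way, from 1.86 ± 0.440 CPM in uncrushed to 7.34 ± 1.68 in crushed nerves (log2 fold change 1.82, SE 0.27, adjusted p = 8.4e-05). Of 7 dendritic cell genes, 6 were tested and 2 rose (Itgax and H2-Ab1, which macrophages also express) in each comparison. The median log2 fold change of the tested genes was -0.21 against uncrushed nerves, with 5 at an unadjusted p below 0.05. Against contralateral nerves the median was 0.40, with 4 at that level. Of the more restricted dendritic cell genes, Flt3, Zbtb46 and Xcr1 were lower in crushed than in uncrushed nerves without overlap. Flt3 was at 18.3 to 19.0 against 24.5 to 26.9 CPM, Zbtb46 at 6.85 to 11.1 against 12.1 to 14.7 CPM and Xcr1 at 2.70 to 5.92 against 6.41 to 9.47 CPM. Clec9a was not lower, at 1.44 ± 0.3 CPM in crushed and 1.19 ± 0.41 in uncrushed nerves, which overlapped. Ccr7 was at 0.305 CPM or less in both groups. The fitted changes of Flt3, Zbtb46 and Xcr1 on the log2 scale, -0.59, -0.75 and -0.88 (adjusted p = 0.00024, 0.0023 and 0.0090 by edgeR's quasi-likelihood test), did not reach the 2-fold limit. The part of dendritic cells in the fall of Mgl2 was not tested. Cd209f (ENSMUSG00000051906, chr8:4102787-4105835, minus strand), a DC-SIGN-related lectin gene, stayed at 0.763 CPM or less in all 11 crush libraries and was too low to be tested.

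Among the receptors of resident macrophages, Lyve1 rose and Cd163 did not pass. Lyve1 (ENSMUSG00000030787, chr7:110850607-110863239, minus strand) encodes a hyaluronan receptor shared by perivascular macrophages and lymphatic endothelium. It had 8.97, 7.76 and 11.8 CPM in uncrushed nerves, 6.25, 5.60, 5.97 and 9.26 in contralateral nerves, and 26.9, 32.6, 42.5 and 40.5 in crushed nerves. The crushed nerves did not overlap with the rest, with log2 fold changes of 1.81 (SE 0.19, adjusted p = 5.5e-06) and 2.27 (SE 0.18, adjusted p = 4.4e-08). Of the lymphatic genes, Prox1 was at 1.88 ± 0.755 CPM in uncrushed and 1.54 ± 0.717 in crushed nerves and Flt4 at 3.81 ± 1.17 and 3.39 ± 0.274. Only Pdpn, which fibroblasts can also express, was called higher among the 5 tested lymphatic genes (log2 fold change 1.73).

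Cd163 (ENSMUSG00000008845, chr6:124304656-124330527, plus strand), the receptor for haptoglobin-bound haemoglobin, was at 40.8, 39.9 and 43.4 CPM in uncrushed nerves, 38.3, 23.3, 32.5 and 47.2 in contralateral nerves, and 44.3, 47.4, 58.9 and 76.4 in crushed nerves. All crushed nerves lay above the uncrushed ones, yet the groups overlapped with contralateral nerves. The log2 fold change was 0.35 (SE 0.18, adjusted p = 0.11) against uncrushed and 0.56 (SE 0.20, adjusted p = 0.026) against contralateral nerves, which is below the 2-fold limit.

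Folr2 (ENSMUSG00000032725, chr7:101839988-101857194, minus strand) encodes folate receptor beta, and Timd4 (ENSMUSG00000055546, chr11:46810800-46844332, plus strand) the phosphatidylserine receptor TIM-4 of long-lived resident macrophages. Folr2 had 2.90, 1.41 and 0.916 CPM in uncrushed nerves, 1.65, 0.933, 0.783 and 2.36 in contralateral nerves, and 4.11, 11.1, 8.29 and 8.73 in crushed nerves. Its crushed nerves lay above all others, replicate 1 least so, with log2 fold changes of 1.97 (SE 0.39, adjusted p = 0.00074) and 2.36 (SE 0.34, adjusted p = 2.4e-05), the first of which was 2.66 without uncrushed replicate 1. Timd4 ranged from 0.598 to 1.53 CPM in uncrushed, 0.622 to 1.75 in contralateral and 1.41 to 2.20 in crushed nerves, which overlapped. It did not pass against uncrushed (log2 fold change 0.56, SE 0.37, adjusted p = 0.20) or contralateral nerves (0.62, SE 0.32, adjusted p = 0.11).

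Other cells moved as well at 3 dpc. Of 8 monocyte genes, 7 rose in both comparisons, led against uncrushed nerves by Fcgr4 (log2 fold change 4.89) and Ccr2 (4.64), and the list summed to 72.7 to 104 CPM in uncrushed and 455 to 633 CPM in crushed nerves. Of 6 eosinophil genes, 2 were tested and both rose (Siglecf, 2.90, and Ccr3, 2.16, from 3.16 ± 0.199 to 15.4 ± 5.25 CPM), whereas the granule genes Epx (1.16 ± 0.317 CPM in uncrushed and 0.447 ± 0.401 in crushed nerves) and Ear6 (0.650 ± 0.0983 and 0.304 ± 0.106) were lower than in uncrushed nerves without overlap, overlapped with contralateral nerves, and were too low for the test. Of 11 neutrophil genes, 3 were tested against uncrushed nerves and 1 was called, Cxcr2 (-1.02, from 31.6 ± 4.72 to 16.8 ± 1.45 CPM), while against contralateral nerves Csf3r was called higher (1.06, from 5.68 ± 0.935 to 12.97 ± 1.79 CPM). The neutrophil gene S100a8 was at 0.0570 ± 0.0987 CPM in uncrushed, 0.0883 ± 0.130 in contralateral and 0.452 ± 0.121 CPM in crushed nerves, close to the depth limit, and was not tested. The part of these cells in the rise of Arg1, Chil3 and the other members was not tested.

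Contralateral nerves were compared with uncrushed nerves to see whether the markers differed in the uncrushed nerve opposite a crush. The uncrushed nerves were surgery controls, so this comparison does not show the effect of the operation itself. No member was called, and edgeR's quasi-likelihood test called 0 of 17722 genes (0%), although 3165 had an unadjusted p below 0.05. DESeq2 called 20 and edgeR's exact test 163, none of them a member. Of the 7 members tested, Lyve1 (log2 fold change -0.56, SE 0.22, adjusted p = 0.22) and Mgl2 (-0.47, SE 0.20, adjusted p = 0.25) had an unadjusted p below 0.05. Arg1, not tested for its low counts, was below the uncrushed range in all 4 contralateral nerves, with 12 against 17 counts in all, and so was Cd209f, with 10 against 18. Both lay near the depth limit of 3 counts, with 1 to 5 counts of Arg1 and 0 to 5 of Cd209f per contralateral nerve. The ratio of summed Arg1 counts was 0.428, with an exact 95% counting interval of 0.187 to 0.951 that covers counting error only. The share of all genes without overlap between these groups was not counted. The other members overlapped.

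Next, the same genes were examined in the iKO nerves, where SCs and not macrophages lose Dicer or Dgcr8. Folr2 rose in both mutants, by log2 fold changes of 1.89 and 2.91, while Retnla and Mgl2 fell in both. Lyve1 was called lower in Dicer iKO, and in Dgcr8 iKO Cd163 was lower and Arg1 higher. In Dicer iKO, 6 members were tested, of which 1 was upregulated (7.37% of 13045 genes) and 3 were downregulated (1.64%). In Dgcr8 iKO, 7 were tested, of which 2 were upregulated (13.4% of 13252 genes) and 3 downregulated (6.99%). The median log2 fold change of the tested members was -1.12 and -1.04, beside -0.01 over all tested genes in each mutant. These medians stand beside pan-macrophage genes that rose in 7 of 9 (Dicer iKO, median 2.35) and 8 of 9 cases (Dgcr8 iKO, median 2.92). Genes of other cells moved as well. In Dgcr8 iKO 5 of 7 tested monocyte genes, 5 of 6 mast cell genes and 4 of 6 fibroblast genes rose, of 3 tested neutrophil genes 2 rose and 1 fell, and the 1 tested eosinophil gene rose. In Dicer iKO 1 of 5 tested monocyte genes, 1 of 2 neutrophil genes and 2 of 6 fibroblast genes rose, and no mast cell gene was called, with 3 of 6 at an unadjusted p below 0.05. Their part in the changes of the members was not tested.

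**Figure D2:**
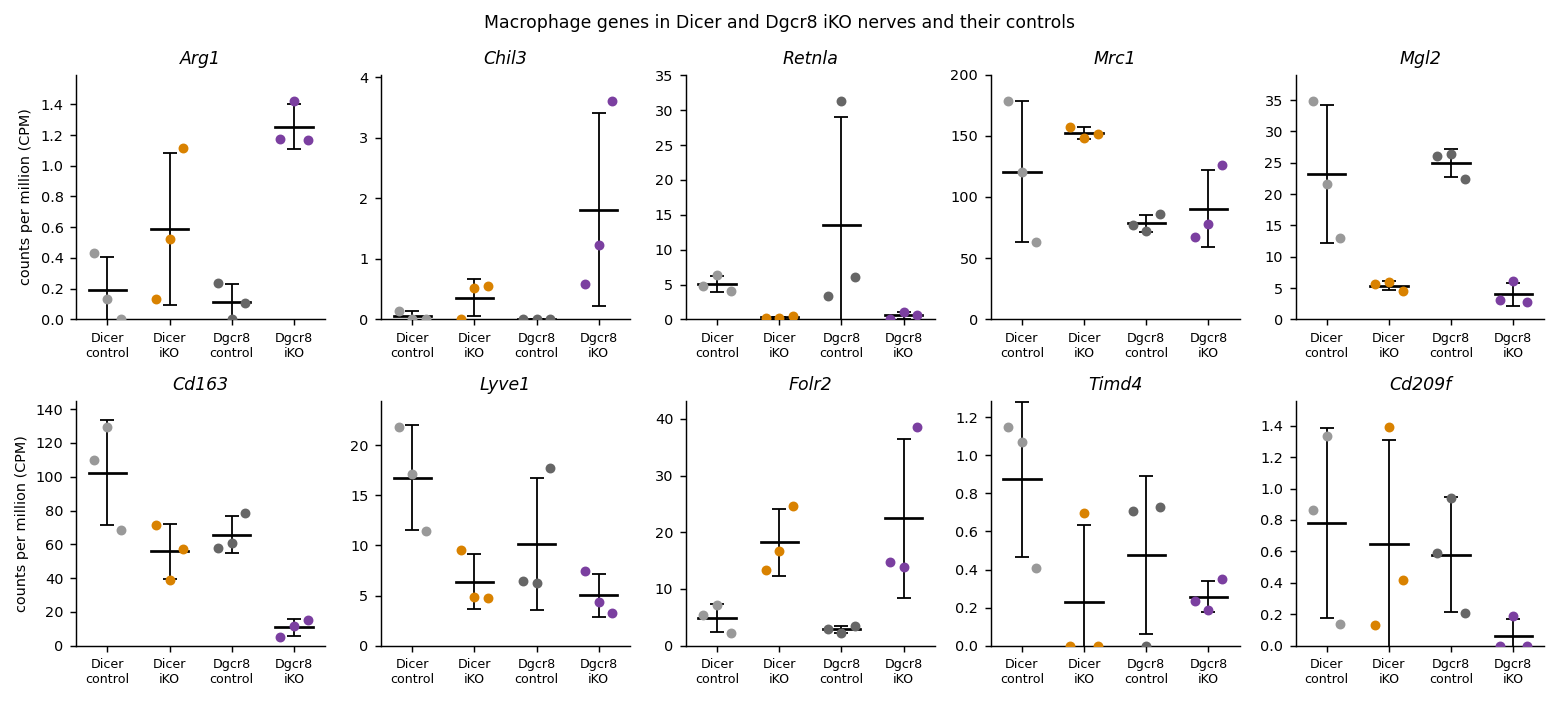
CPM of the 10 genes in each library of the iKO experiment (points), by group, with the group mean (line) and SD (bar); each panel has its own axis from 0. Retnla and Mgl2 lie lower and Folr2 higher in all mutant nerves than in their controls, and Cd163 lies lower in all Dgcr8 iKO nerves.

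Among the products of alternative activation, Retnla was at 4.74, 6.42 and 4.07 CPM in Dicer controls and 0.265, 0.174 and 0.418 in Dicer iKO. It was at 3.29, 31.4 and 6.03 CPM in Dgcr8 controls and 0, 1.04 and 0.699 in Dgcr8 iKO. No mutant nerve reached its controls, and Dgcr8 control replicate 2 stood 5-fold or more above the other Dgcr8 controls. The log2 fold change was -4.03 (SE 0.43, adjusted p = 0.0024) in Dicer iKO and -4.43 (SE 0.94, adjusted p = 0.0028) in Dgcr8 iKO, the latter -2.93 without Dgcr8 control replicate 2 and -5.19 without Dgcr8 iKO replicate 2, both still called. The adipocyte genes summed to 0.536 CPM in Dgcr8 control replicate 2, the lowest of the 12 iKO libraries, to 2.58, 99.5 and 10.45 CPM in Dicer controls, 17.6 to 24.4 in Dicer iKO and 14.9 to 86.4 in Dgcr8 iKO. By this sum every Dgcr8 iKO nerve lay above every Dgcr8 control, while Dicer iKO and their controls overlapped. Of these genes, Fabp4 was at 17.4 to 24.2 CPM in Dicer iKO, against 2.58 to 17.65 in Dicer controls. It was at 14.9 to 23.1 CPM in Dgcr8 iKO, against 0.941 or less in Dgcr8 controls. Adipoq, Plin1, Cidec, Lep and Cfd were each at 0.174 CPM or less in all Dicer iKO nerves. Cfd ranged from 0 to 57.2 CPM in Dicer controls, 0 to 1.88 in Dgcr8 controls and 0 to 45.1 in Dgcr8 iKO. The part of fat in the fall of Retnla was not tested.

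Arg1 was at 0.235, 0 and 0.104 CPM in Dgcr8 controls and 1.18, 1.42 and 1.17 in Dgcr8 iKO, without overlap. With 35 against 3 counts in all, the ratio was 10.8 with an exact 95% counting interval of 3.41 to 54.9, and the fitted log2 fold change was 3.28 (SE 0.71, adjusted p = 0.0031), or 4.14 without Dgcr8 control replicate 1. In Dicer iKO, Arg1 ranged from 0.133 to 1.11 CPM against 0 to 0.431 in the controls, which overlapped, and it was not tested. Chil3 was not tested in either mutant. It had no counts in any Dgcr8 control and 5, 13 and 31 counts in Dgcr8 iKO (0.588, 1.23 and 3.61 CPM), of which replicate 3 held 31. The exact 95% counting interval of the ratio of 49 to 0 counts begins at 11.85. In Dicer iKO it had 7 counts against 1.

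Of the lectins, Mrc1 did not pass in either mutant. It was at 179, 120 and 63.5 CPM in Dicer controls and 158, 148 and 151 in Dicer iKO (log2 fold change 0.34, SE 0.32, adjusted p = 0.47). It was at 76.7, 72.5 and 85.9 CPM in Dgcr8 controls and 67.1, 78.1 and 126 in Dgcr8 iKO (0.20, SE 0.20, adjusted p = 0.45). The mutant nerves overlapped with their controls in both cases.

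Mgl2 was at 34.9, 21.7 and 13.03 CPM in Dicer controls and 5.70, 5.91 and 4.59 in Dicer iKO, and at 26.1, 26.4 and 22.3 CPM in Dgcr8 controls and 3.06, 6.07 and 2.79 in Dgcr8 iKO. All 6 mutant nerves lay below all 6 controls. It fell by 2.10 (SE 0.36, adjusted p = 0.0087) and by 2.62 (SE 0.26, adjusted p = 2.3e-05) on the log2 scale; the first call was lost without Dicer iKO replicate 3 (-1.98, adjusted p = 0.054). Clec10a was at 9.19 ± 2.94 CPM in Dicer controls and 7.12 ± 1.47 in Dicer iKO, and at 6.94 ± 1.70 and 5.65 ± 1.46 CPM in Dgcr8 controls and Dgcr8 iKO, and did not pass in either (adjusted p = 0.40 and 0.43). Of the dendritic cell genes, 1 of 4 tested was called higher in Dicer iKO and 2 of 5 in Dgcr8 iKO, with none called lower. Cd209f had 17 counts in all in Dicer controls and 12 in Dicer iKO, and 14 and 2 in Dgcr8 controls and Dgcr8 iKO, and was not tested.

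Cd163 was at 57.8, 61.0 and 78.5 CPM in Dgcr8 controls and 5.06, 11.8 and 15.5 in Dgcr8 iKO, a fall of more than 3-fold between the nearest nerves of the groups. The log2 fold change was -2.61 (SE 0.29, adjusted p = 4.6e-05). In Dicer controls it was at 110, 129 and 68.3 CPM and in Dicer iKO at 71.5, 38.8 and 57.4, which overlapped by 1 control nerve. That difference of -0.86 (SE 0.28, adjusted p = 0.064) did not pass, but it was -1.09 (adjusted p = 0.013) without Dicer control replicate 3.

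Lyve1, which rose after crush, was lower in Dicer iKO. It was at 21.8, 17.1 and 11.4 CPM in Dicer controls and 9.55, 4.87 and 4.73 in Dicer iKO, without overlap (log2 fold change -1.37, SE 0.35, adjusted p = 0.029). This call was lost without Dicer control replicate 1 or 2 (adjusted p = 0.055 and 0.090) and without Dicer iKO replicate 2 or 3 (adjusted p = 0.11 and 0.12). In Dgcr8 controls Lyve1 was at 6.47, 6.30 and 17.8 CPM and in Dgcr8 iKO at 7.41, 4.37 and 3.26, which overlapped, and the difference of -1.04 (SE 0.42, adjusted p = 0.066) did not pass. It ranged from -0.37 without Dgcr8 control replicate 3 to -1.42 without Dgcr8 iKO replicate 1, and was called in the latter case (adjusted p = 0.035) and without Dgcr8 control replicate 1 or 2 (adjusted p = 0.046 and 0.048). The lymphatic genes Prox1 (0.815 CPM or less in every iKO library) and Flt4 (1.04 to 3.88 CPM) were low throughout, and edgeR's quasi-likelihood test called 0 of 3 tested lymphatic genes in Dicer iKO (1 at an unadjusted p below 0.05) and 1 of 3 in Dgcr8 iKO (Pdpn, log2 fold change 2.31).

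Folr2 was at 5.46, 7.09 and 2.17 CPM in Dicer controls and 13.3, 16.7 and 24.6 in Dicer iKO. It was at 2.94, 2.28 and 3.53 CPM in Dgcr8 controls and 14.8, 13.9 and 38.5 in Dgcr8 iKO. Every mutant nerve lay above every control, with log2 fold changes of 1.89 (SE 0.40, adjusted p = 0.017) and 2.91 (SE 0.41, adjusted p = 0.00020). The Dicer call was lost without Dicer iKO replicate 2 or 3 (adjusted p = 0.062 and 0.083), and the Dgcr8 value was 2.28 without Dgcr8 iKO replicate 3. Timd4 had 19 and 13 counts in all in Dicer and Dgcr8 controls and 4 and 7 in the mutants, too few for a test.

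Whether the mutants differed in their response was tested as an interaction over the 12 iKO libraries, by the adjusted p alone. None of the 6 members tested was called, and 2 of 13552 genes (0.0148%) were, with 1861 at an unadjusted p below 0.05. Without Dicer control replicate 3, 320 genes were called higher and 81 lower, again without a member. Cd163 came nearest, with a response that was lower in Dgcr8 iKO by 1.74 on the log2 scale (difference -1.74, SE 0.46, unadjusted p = 0.0023, adjusted p = 0.17), and DESeq2, which called 170 genes higher and 65 lower, called it (-1.73, adjusted p = 0.025). For Folr2 the difference was 1.03 (SE 0.65, adjusted p = 0.51), for Mgl2 -0.52 (SE 0.49, adjusted p = 0.67), for Lyve1 0.34 (SE 0.63, adjusted p = 0.85), for Mrc1 -0.13 (SE 0.42, adjusted p = 0.91) and for Retnla -0.40 (SE 1.86, adjusted p = 0.95). Intervals of this width do not show that the mutants responded alike.

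**Figure D3:**
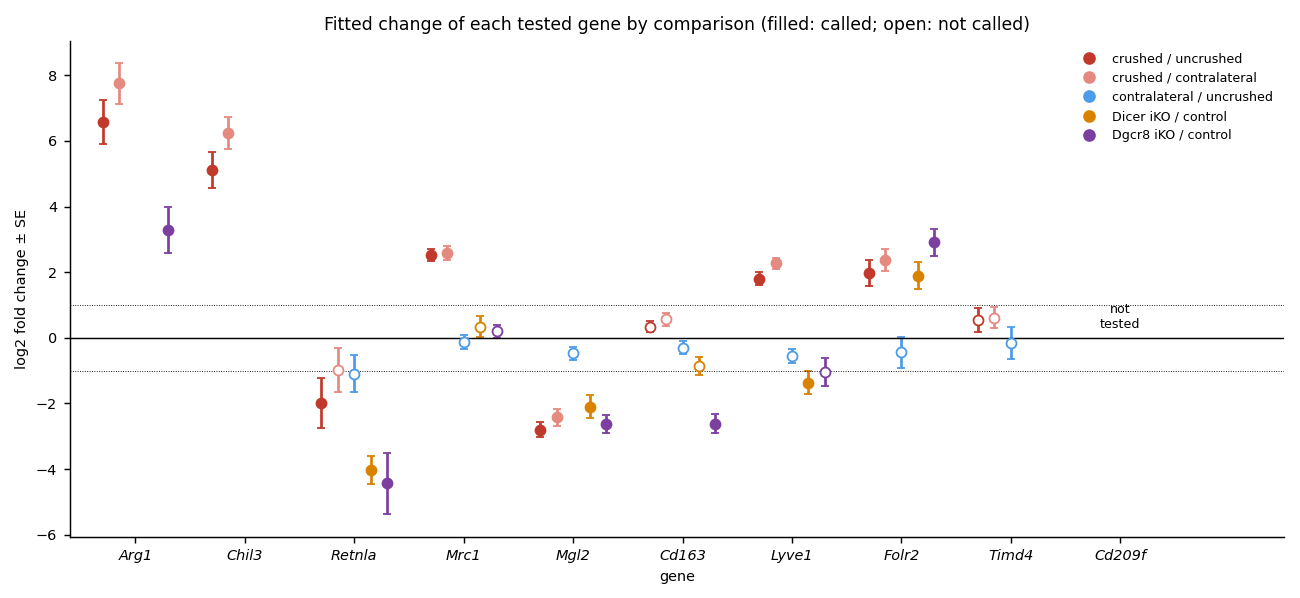
Fitted log2 fold change (vertical axis) with its SE (bars) for each tested gene in 5 comparisons (colours); filled points passed a fold change of at least 2 (dotted lines at 1 and -1) and an adjusted p of at most 0.05. Mgl2 lies near or below -2 in crushed and mutant nerves, Folr2 near 2 or above, and Lyve1 lies above 0 after crush and below 0 in the mutants.

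The members were also set against the macrophage genes of each library, as a percentage of the summed CPM of the 9 pan-macrophage genes. These percentages are a description without a test. They depend on the genes in the sum, since C1qa, C1qb and C1qc made up 27.3 ± 4.64% of it in uncrushed, 36.8 ± 2.78% in crushed, 32.3 ± 1.86% in Dgcr8 control and 63.4 ± 5.06% in Dgcr8 iKO nerves. The ratios between groups were therefore also taken without these 3 genes, against Csf1r alone and against Mertk alone, as alternatives chosen after seeing the data. Mertk moved less than the other genes of the sum in these comparisons but rose after crush, with log2 fold changes of 0.59 and 0.92 against uncrushed and contralateral nerves (adjusted p = 0.00025 and 8.7e-08 by edgeR's quasi-likelihood test), 0.51 in Dicer iKO (0.12) and -0.08 in Dgcr8 iKO (0.68). The part of Mertk in the sum therefore changed as well. From Dgcr8 controls to Dgcr8 iKO the mean of Adgre1 went from 21.0 to 156 CPM and that of Cd68 from 5.38 to 137 CPM. A ratio to Mertk is thus not a level per macrophage, and the cells that Mertk counts came from were not tested. The mean of Mertk was 65.8 CPM beside a mean sum of 151.5 CPM in uncrushed nerves, and 107.4 beside 570.5 in crushed nerves. It was 118.3 beside 525.1 CPM in Dicer controls and 167.8 beside 2042 in Dicer iKO. In Dgcr8 controls it was 142.2 beside 360 CPM, and in Dgcr8 iKO 134.5 beside 1884.

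Mgl2 was lower in crushed and mutant nerves by every denominator. It was 9.11 ± 1.53% of the 9-gene sum in uncrushed and 0.384 ± 0.124% in crushed nerves, 4.27 ± 0.719% and 0.283 ± 0.105% in Dicer controls and Dicer iKO, and 6.96 ± 0.916% and 0.266 ± 0.224% in Dgcr8 controls and Dgcr8 iKO. None of these pairs overlapped. The ratio of crushed to uncrushed nerves was 0.0421, and 0.0965 against Mertk, and that of Dgcr8 iKO to controls was 0.0382, and 0.178 against Mertk, still without overlap.

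Cd163 was 27.3 ± 1.06% in uncrushed and 10.3 ± 2.88% in crushed nerves, 19.8 ± 4.29% in Dicer controls and 3.00 ± 1.67% in Dicer iKO, and 18.2 ± 2.30% in Dgcr8 controls and 0.622 ± 0.364% in Dgcr8 iKO. In the mutants it was lower without overlap by all 4 denominators, with ratios between 0.151 and 0.345 in Dicer iKO and between 0.0341 and 0.169 in Dgcr8 iKO. After crush the ratio was 0.378 by the 9-gene sum, whereas against Mertk it was 0.851 and the groups overlapped.

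The percentage of Lyve1 overlapped between crushed and uncrushed nerves, at 6.42 ± 1.29% and 6.25 ± 1.22%, whereas against Mertk alone the ratio was 2.32 without overlap. It was 3.20 ± 0.0310% in Dicer controls and 0.357 ± 0.260% in Dicer iKO, which did not overlap by any denominator. In Dgcr8 controls it was 2.79 ± 1.68% and in Dgcr8 iKO 0.305 ± 0.162%, without overlap, but against Mertk alone the ratio was 0.552 and the groups overlapped.

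Mrc1 was 30.4 ± 4.16% in uncrushed and 50.8 ± 6.68% in crushed nerves, where the lowest crushed nerve stood at 42.6% and the highest uninjured nerve at 38.7%, and it was higher without overlap by all 4 denominators. In the iKO experiment it was 22.1 ± 4.06% in Dicer controls and 7.90 ± 2.57% in Dicer iKO, and 21.8 ± 1.62% in Dgcr8 controls and 5.05 ± 1.49% in Dgcr8 iKO, without overlap. Against Mertk alone these ratios were 0.754 and 1.19, and both pairs overlapped.

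Folr2 ranged from 0.810 ± 0.164% in Dgcr8 controls to 1.38 ± 0.215% in crushed nerves, and by the 9-gene sum every group overlapped with its controls. It did not do so by all denominators in the mutants. In Dgcr8 iKO its ratio to the controls was 1.42 by the 9-gene sum, 2.67 without the C1q genes, 2.54 against Csf1r and 7.65 against Mertk, the last 3 without overlap. In Dicer iKO the ratios were 0.973, 1.39, 1.67 and 2.33, of which those against Csf1r and Mertk were without overlap. Arg1 reached 11.2 ± 5.51% in crushed nerves and was 0.122% or less in every iKO library.

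**Figure D4:**
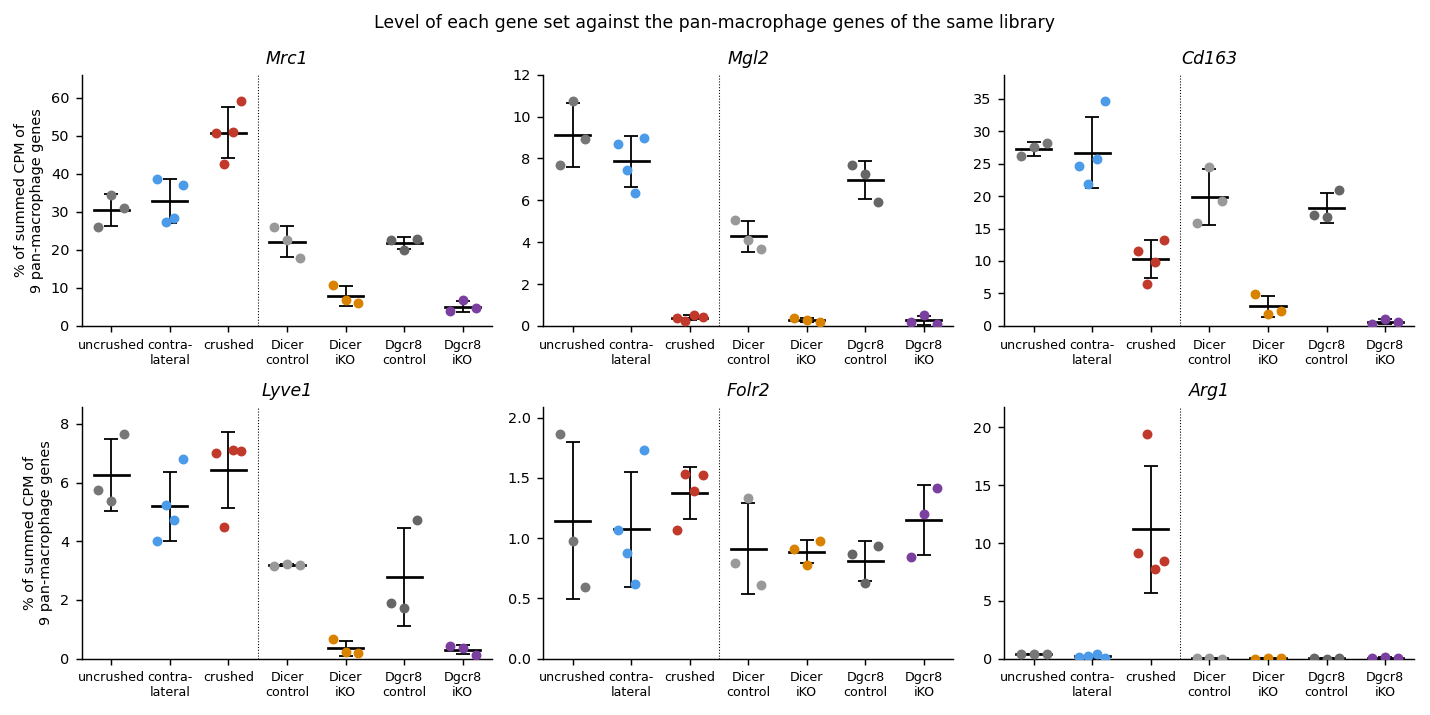
Level of 6 genes as a percentage of the summed CPM of 9 pan-macrophage genes in the same library (vertical axis, from 0), by group; points are libraries, lines means and bars SDs, and the dotted line parts the crush from the iKO experiment. Mgl2 and Cd163 are lower in crushed and mutant nerves than in their controls, while the points of Folr2 overlap between each group and its controls.

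The lists of related genes showed where the members stood among their pathway. Of 20 genes of interleukin 4 and interleukin 13 signalling, 14 were tested against uncrushed nerves and 8 rose, led by Il4ra, from 5.72 ± 0.364 to 90.5 ± 3.88 CPM (log2 fold change 3.85, adjusted p = 2.0e-10), Ptpn6 (3.29) and Il2rg (3.03). Stat6 was at 64.6 ± 4.64 and 76.2 ± 4.54 CPM and was not called (0.12, adjusted p = 0.25). The cytokines Il4 and Il13 had 15 and 6 counts in all in the crushed nerves and were not tested. In Dicer iKO 5 of 13 tested pathway genes rose and in Dgcr8 iKO 7 of 14, and Il4ra was among them both times (log2 fold changes 1.02 and 1.70, adjusted p = 0.017 and 2.6e-05), while Stat6 was not called in either. None of the pathway genes was called lower in these 3 comparisons.

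Of 22 other genes linked to alternative activation, 11 of 15 tested rose and 1 fell against uncrushed nerves (Egr2, which SCs also use for myelination), 7 of 12 rose in Dicer iKO and 11 of 14 in Dgcr8 iKO, with none lower in the mutants. Retnlg, the paralogue of Retnla that neutrophils express, was at 0.0570 ± 0.0987 CPM in uncrushed and 15.5 ± 5.38 CPM in crushed nerves, and at 1.61 ± 0.259 CPM in Dgcr8 iKO, where its controls had no counts. Il1rn and Trem2 were among the 3 largest changes in both mutants (log2 fold changes 5.39 and 3.66 in Dicer iKO, 5.32 and 5.12 in Dgcr8 iKO). Of 22 other resident macrophage genes, 12 of 17 tested rose against uncrushed nerves, 8 of 16 in Dicer iKO and 11 of 16 in Dgcr8 iKO, led in the mutants by the chemokine gene Ccl8 (6.21 and 8.14). Of that list, F13a1 was called lower in Dgcr8 iKO, and Maf was called lower in crushed than in contralateral nerves. Among 16 genes of classical activation, 5 of 9 tested rose at 3 dpc, 6 of 8 in Dicer iKO and 4 of 6 in Dgcr8 iKO, with Cxcl10 leading in both mutants (4.17 and 3.15) and none called lower.

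The genes whose pattern was most like a member's were found by Pearson's r of log2(CPM + 1) over the libraries of an experiment. These values carry no test, since the libraries share their group structure. Over the 11 crush libraries Mrc1 was most like Cd300ld (r = 0.998), Sfxn1 (0.998) and Alox5ap (0.996), Lyve1 like Ms4a6c (0.990) and Pira2 (0.990), and Mgl2 like S100a7a (0.987), Crispld2 (0.984) and Cpxm2 (0.981). Over the 12 iKO libraries Folr2 was most like Sesn2 (0.979), Efhd2 (0.978) and C1qc (0.975), Mrc1 like Dab2 (0.956), Gxylt2 (0.953) and Hpgd (0.947), Cd163 like Fkbp5 (0.971), Hlf (0.951) and Ppl (0.950), and Retnla like Zfhx4 (0.961), 2310022B05Rik (0.939) and Hid1 (0.937). No gene appeared in a member's list in both experiments.

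The counts of some members can hold reads of relatives. Of the 50-base stretches of the main Chil3 transcript, 29.4% also occurred in transcripts of other genes, Chil4 and Gm6522 among them. Chil4 itself had 20 counts in all in uncrushed, 24 in contralateral and 7 in crushed nerves, where Chil3 had 3, 2 and 201. For Mgl2 the share was 17.0%, with Clec10a among the genes concerned, and for Cd209f 73.0%, with Cd209g. It was 0% for Arg1, Folr2, Lyve1, Mrc1, Retnla and Timd4 and 0.0919% for Cd163. Cd163 counts were divided between 2 transcripts, and the share of ENSMUST00000032234 was 61.4 ± 8.93% in uncrushed and 70.0 ± 6.70% in crushed nerves, 66.2 ± 19.8% in Dgcr8 controls and 70.6 ± 15.8% in Dgcr8 iKO, which differed by less than the spread between nerves.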

How the data were processed

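RNA of whole mouse sciatic nerves was sequenced in 23 libraries. Per the labels, crush libraries were made with a SMARTer pico kit and iKO libraries with TruSeq and Ribo-Zero, whereas the study's methods name TruSeq with RiboZero for all. The submitters' processing notes name Trimmomatic, RSEM and GRCm38. The authors deposited expected counts, TPM and FPKM per transcript, each used here as a sum per gene. Expected counts were rounded. Genes were kept by filterByExpr (minimum count 10), normalized by TMM and fitted by edgeR's quasi-likelihood test (edgeR 4.0.16, R 4.3.3) on the groups of each comparison. A call needed a fold change of at least 2 and a Benjamini-Hochberg adjusted p of at most 0.05. Libraries within a group came from separate mice, and the p-values measure their spread. Crushed and contralateral nerves may share mice, which the unpaired fit does not use. Log2 fold changes of the fit depend on its prior count for low genes. TPM served only to order members within a group, and FPKM to check that order. Alternatives were RLE normalization, no filter, DESeq2 1.42.0, edgeR's exact test, all groups in one fit, a replicate block and each library left out. Fits were tested on simulated data. An uncrushed library called replicate 3 in its title and 4 in its description was used as replicate 3.

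The members and lists were chosen with earlier results of these data known. Named besides the members were at most the 3 largest called changes of a pathway list in a comparison, genes whose role the text needs, and markers of other cells beside a result they touch. For likeness, the 3 genes with the highest r among those with a mean of at least 1 CPM were found, and they are named for some of the members only. Percentages of macrophage genes were recomputed with other denominators, chosen after seeing the data. Promoter windows run from 250 bases before to 50 after RefSeq start sites. Gene spans are those of the GRCm38 annotation. Protein sequences were not used here, and a gene that met the likeness rule is not reported here.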

Additional observations from a re-analysis of the deposited data

Results flagged for a closer look

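In the 4 crushed nerves, the highest library of Arg1, replicate 2 at 141 CPM, stood apart from the others, with a gap of 0.872 of the group's range to the next. The highest library of Retnla, replicate 1 at 1.84 CPM, stood apart in the same way, with a gap of 0.904 of the range. These are 2 of 20 groups of 4 examined, where chance flags about 1 in 20. Arg1 passed against both kinds of uninjured nerve without replicate 2, while the calls on Retnla changed with replicate 1, as given above.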

How the results depend on the processing

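Of 584 member log2 fold changes recomputed under alternatives, 552 kept direction and side of the threshold, 13 lost and 9 gained a call, and 10 uncalled values changed sign. Leaving out 1 library gave 1 to 2 members downregulated against uncrushed nerves (2 with all libraries), 1 to 2 against contralateral nerves (1), 0 to 1 upregulated (1) and 1 to 4 downregulated (3) in Dicer iKO, and 2 to 3 upregulated (2) and 3 to 4 downregulated (3) in Dgcr8 iKO. With all groups in one fit, 1 member was upregulated in Dgcr8 iKO, since Arg1 did not pass the filter there. DESeq2 called 1 member, Cd163, in the comparison of the mutants, where edgeR called 0. Lyve1 was called lower in Dgcr8 iKO by DESeq2 (-1.03, adjusted p = 0.0368), by edgeR's exact test (-1.03, 0.0447) and without the filter (-1.05, 0.0189). The values that changed sign ranged, as 1 library was left out, from -0.33 to 0.031 (Mrc1), -0.51 to 0.12 (Timd4, also 0.06) and -0.79 to 0.20 (Folr2) in contralateral against uncrushed nerves, from -0.11 to 0.37 for Mrc1 in Dgcr8 iKO, and from -1.15 to 1.13 (Retnla, also 0.14), -0.53 to 0.17 (Mrc1, also 0.05) and -0.040 to 1.01 (Lyve1) between the mutants. The cause of these shifts was not tested. Without the filter, the median of all genes moved from -0.03 to -0.39 against uncrushed nerves.

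Same-numbered libraries had correlations of their deviations from -0.154 to 0.157, and no comparison had all above 0.1, so pairing by number was not shown, although crushed and contralateral nerves may share mice. The block changed no member's call between those groups. With a replicate block, 1 member was downregulated against uncrushed nerves (Retnla lost, -1.77, adjusted p = 0.101) and 0 upregulated in Dicer iKO (Folr2 lost, 1.92, 0.0741), where the block moved all calls from 961 up and 214 down to 548 and 92. Without Dicer iKO replicate 3 they were 515 and 57.

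Depth limits Cd209f, Timd4 and Chil3 most, which had few counts in most groups. Of 2400 list counts, 112 moved by over 1.5 times, and the order of levels by FPKM held in 70 of 70 places. Of 72 ratios of percentages of macrophage genes under denominators chosen after seeing the data, 29 moved by more than the spread between nerves. The tally of reversals held 1 ratio, Mrc1 in Dgcr8 iKO (log2 ratio -2.11, and 0.26 against Mertk). By sign alone, Folr2 and Arg1 in Dicer iKO also changed direction under every alternative denominator. Their log2 ratios by the full pan-macrophage sum were -0.04 and -0.18, where both overlapped with the controls. Under the alternatives they were 0.47 to 1.22 for Folr2 and 0.30 to 0.88 for Arg1, which overlapped throughout.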
